A study of Mus musculus with 8 samples.

Results

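The mouse mitochondrial genome is a small circle of DNA carried in many copies per cell, and its transcripts were taken from the count table by a single rule: every gene whose symbol starts with mt-. The rule found 37 of the 57010 genes in the table. They are 13 messenger RNAs (mRNAs), 2 ribosomal RNAs (rRNAs) and 22 transfer RNAs (tRNAs). All 13 mRNAs, both rRNAs and 1 tRNA, mt-Tp, had enough counts to be tested, which makes 16 of 37. The other 21 tRNAs had 0 counts in every library.

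The RNA came from mouse embryonic stem cells, a culture of early embryonic cells able to give rise to every tissue of the body. A small share of such cells passes through a state that resembles the 2-cell embryo, the 2C-like state. The HSVTK cells are named for the thymidine kinase of herpes simplex virus. In the study it is driven by a reporter of the 2C-like state, and cells that make it convert the drug ganciclovir (GANC), a nucleoside analogue, into a poison. There were 4 groups of 2 libraries: Control cells with the solvent DMSO, Control cells with GANC, HSVTK cells with DMSO and HSVTK cells with GANC. Dose, duration and the genotype of the Control cells are missing from the labels, as is whether the HSVTK cells are a single clone. No label ties the 2 libraries of a group to separate cultures, so every p-value below measures the spread between libraries, which may be technical.

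The 13 mRNAs all encode membrane subunits of the respiratory chain and its ATP synthase. Complex I (NADH dehydrogenase) and complex III pass electrons towards complex IV (cytochrome c oxidase), which hands them to oxygen, and complex V makes ATP from the proton gradient that results. Both strands of the circle are transcribed from end to end as long precursors. The tRNAs lie like punctuation between the larger genes, and cutting them out releases the mRNAs and rRNAs. All other proteins of mitochondria, including the polymerase and the ribosomal proteins, come from nuclear genes.

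The tRNAs are shown first because only one of them was counted. In the GRCm38 sequences of GENCODE vM21, matched by Ensembl identifier, the tRNA genes are 59 to 75 bases long, and all 37 gene lengths equal those in the deposited table. The tRNA for proline, mt-Tp (ENSMUSG00000064372), is encoded on the minus strand at chrM:15356-15422 and is the last annotated gene before the noncoding control region. Its neighbour mt-Tt, the tRNA for threonine, lies on the plus strand at chrM:15289-15355, has the same length of 67 bases and ends where mt-Tp begins. The capitals mark the anticodon.
mt-Tp: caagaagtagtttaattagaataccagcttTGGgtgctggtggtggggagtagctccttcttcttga
mt-Tt: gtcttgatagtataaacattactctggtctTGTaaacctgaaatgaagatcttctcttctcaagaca
The mt-Tp gene had 581 to 1426 counts per library, and mt-Tt had 0 counts in all 8. A count of 0 is read against a floor of 3 counts, which is 0.0878 to 0.101 CPM (counts scaled to library size) in 1 library and covers counting error only.

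A second set of sequences shows which mRNAs share stretches with nuclear transcripts. Nuclear chromosomes carry copies of mitochondrial DNA, annotated as pseudogenes, and a short read from a shared stretch matches both places. Each mRNA and rRNA was therefore cut into windows of 75 bases, and the share of windows found without a mismatch in a nuclear transcript was counted. For mt-Co2, mt-Atp6, mt-Co3, mt-Nd3 and mt-Nd4l this share was 99.5%, 99.5%, 99.9%, 97.8% and 98.7%. Each of these 5 genes has a copy on chromosome 1, as do parts of mt-Nd4 and mt-Co1, and mt-Co2 has another, Gm13341, on chromosome 2 that shares 138 of the windows. The copy of mt-Nd4l, Gm10222 on the minus strand at chr1:24612407-24612700, does not differ from it at any of 294 aligned bases, and the first 61 bases of both read alike.
mt-Nd4l: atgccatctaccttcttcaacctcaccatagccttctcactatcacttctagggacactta
Gm10222: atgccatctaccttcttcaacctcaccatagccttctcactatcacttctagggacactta
The copy of mt-Nd3, Gm28438 on the minus strand at chr1:24612775-24613119, differs at 1 of 345 bases, which falls in the first 33 bases and is shown in capitals.
mt-Nd3: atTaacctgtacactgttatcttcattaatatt
Gm28438: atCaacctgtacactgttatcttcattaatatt
The copy of mt-Co1 on chromosome 2, Gm13340 on the minus strand at chr2:22588103-22589647, runs over all 1545 bases with 37 differences. Bases 24 to 84 of both hold 2 of them, again in capitals.
mt-Co1: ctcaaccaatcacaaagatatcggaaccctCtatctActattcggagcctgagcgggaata
Gm13340: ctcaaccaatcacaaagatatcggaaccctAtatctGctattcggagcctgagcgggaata
In mt-Nd1, mt-Nd6, mt-Cytb, mt-Atp8, mt-Rnr1 and mt-Rnr2 no window matched a nuclear transcript, and the share was 1.66% in mt-Nd5, 5.71% in mt-Nd2, 39.8% in mt-Co1 and 61.5% in mt-Nd4. The treatment of reads with several matches, or over more than 1 gene, was not stated in the labels or notes.

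Each library held 29704460 to 34184475 counts, and 17976 genes had enough counts for testing. Pou5f1, Nanog and Sox2, which define embryonic stem cells, were present in every group, with group means of 357 to 688 CPM. Summed fibroblast markers reached 8.62 to 18.3 CPM and summed primitive endoderm markers 2.59 to 9.10 CPM. Most of the fibroblast sum was Thy1, while Postn, Lum, Dcn and Col3a1 had 0 to 6 counts in a library. Both sums were higher in the HSVTK than in the Control libraries, and their part in the results was not tested. The 2C-like marker Zscan4c had 151 and 123 counts in the libraries labelled HSVTK DMSO and 269 and 297 in those labelled HSVTK GANC (log2 fold change 1.07 ± 0.18 SE, adjusted p = 4.28e-05 with edgeR's quasi-likelihood test and Benjamini-Hochberg adjustment). That goes against the label, since the drug is meant to remove these cells, so group names below are those of the labels. In bulk RNA, fewer cells of a type and less RNA per cell cannot be told apart.

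The levels of different mitochondrial genes are compared in FPKM, counts scaled to gene length and library size, as the mean of 8 libraries. The catalytic subunit of complex IV, mt-Co1, was highest at 10451 FPKM, with a range of 9420 to 11834. The complex I subunit mt-Nd1 followed at 5353 FPKM and cytochrome b of complex III, mt-Cytb, at 4372 FPKM, and the ranges of these 2 genes overlapped (4414 to 6372 and 3312 to 5088).

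The other complex I subunits with little shared sequence were lower. The mean was 1590 FPKM for mt-Nd2 and 867 FPKM for mt-Nd5, and mt-Nd6, the only mRNA made from the opposite strand, had 612 FPKM. The mean of mt-Nd4 was 820 FPKM, and its range of 673 to 918 overlapped the 739 to 939 of mt-Nd5. Both rRNAs of the mitochondrial ribosome stood below these mRNAs, mt-Rnr1 of the small subunit at 348 FPKM and mt-Rnr2 of the large subunit at 238 FPKM. The labels do not state mRNA selection or rRNA removal, and the part of either in this order was not tested. The level of mt-Tp was 461 FPKM, from a gene of only 67 bases, and it is not ranked against the longer genes. Use of the strand in counting was not stated either, and without it reads of the opposite strand over mt-Nd6 and mt-Tp cannot be told apart from their own.

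The 5 mRNAs almost wholly shared with the nucleus were the lowest, together with mt-Atp8. They reached 177 FPKM for mt-Co2, 78.0 for mt-Co3, 70.7 for mt-Atp6, 21.7 for mt-Nd4l and 11.7 for mt-Nd3. The other 7 mRNAs without mt-Atp8 had 612 to 10451 FPKM, so the groups did not overlap. The small complex V subunit mt-Atp8, at 20.6 FPKM, has no shared window, but it overlaps mt-Atp6, one of the shared genes, by 43 bases. In counts, the 5 shared genes had 86 to 5333 per library and the other 7 had 8725 to 596253.

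**Figure D1:**
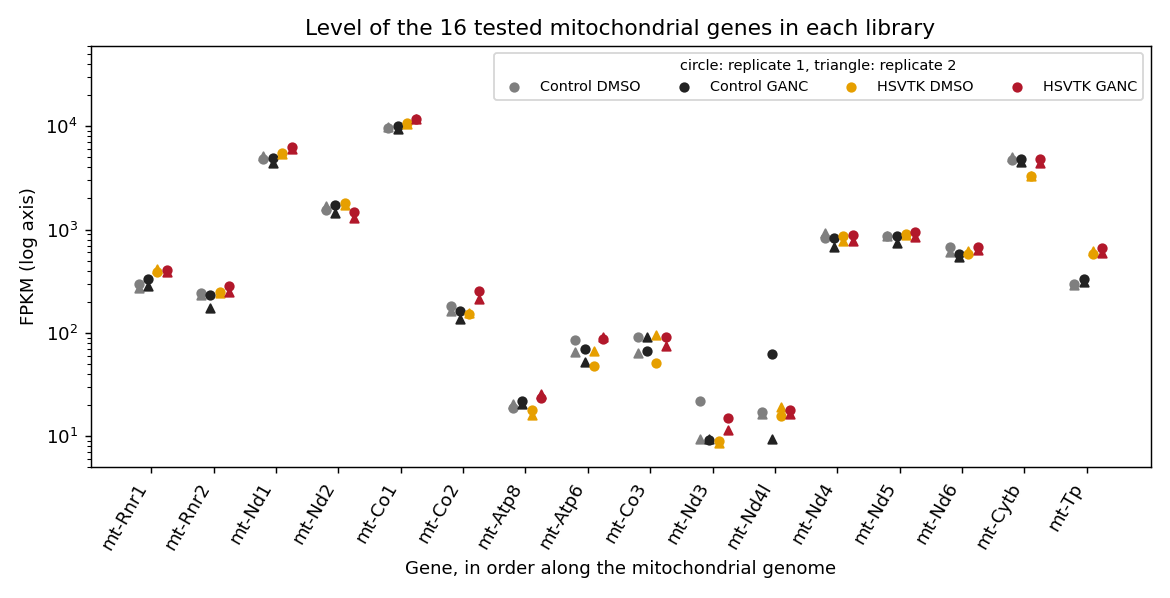
FPKM on a log axis for the 16 tested mitochondrial genes in their order along the genome, with a symbol for each of the 8 libraries coloured by group. The mean of mt-Co1 was 10451 FPKM and that of mt-Nd3 11.7 FPKM, and the groups lie close together beside these differences between genes, except in mt-Nd4l, where 1 Control GANC library stands at 62.5 FPKM.

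**Figure D2:**
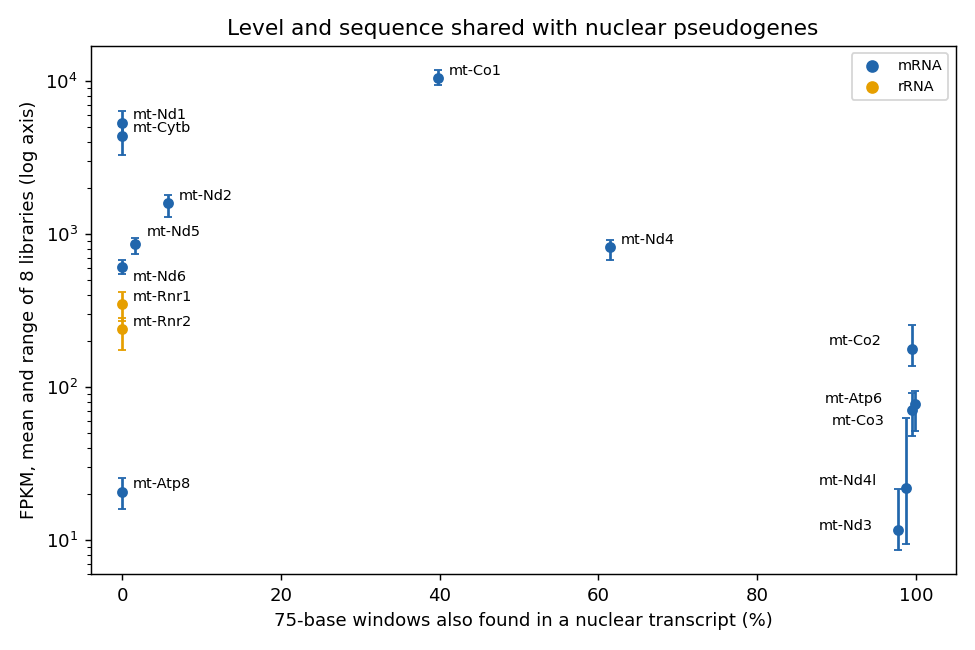
The mean FPKM over 8 libraries (log axis, bars from the lowest to the highest library) against the percentage of 75-base windows of each mRNA and rRNA that also occur in a nuclear transcript. The 5 genes at the right, with shares of 97.8 to 99.9%, had 11.7 to 177 FPKM, while mt-Atp8 was as low, at 20.6 FPKM, with a share of 0%.

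The libraries labelled HSVTK GANC had the largest mitochondrial shares of counts of the 8. Their share was 3.04% and 3.17% with Control DMSO, 3.16% and 2.88% with Control GANC, 3.16% and 3.13% with HSVTK DMSO, and 3.56% and 3.45% with HSVTK GANC. The first 3 groups overlapped one another. The mean of HSVTK GANC lay above that of HSVTK DMSO by 0.362 percentage points and above that of Control GANC by 0.491. This is a description and was not tested, because it is a sum over chosen genes.

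The make-up of these counts by complex differed most in complex III, which is mt-Cytb alone. It took 17.9% and 18.3% of the mitochondrial counts with Control DMSO, 17.4% and 17.9% with Control GANC, 12.1% and 12.1% with HSVTK DMSO, and 15.4% and 14.6% with HSVTK GANC. All 4 HSVTK libraries were thus below all 4 Control libraries, and HSVTK DMSO was lowest. Complex IV, nearly all mt-Co1, went the other way. It held 48.99% and 48.30% with Control DMSO and 49.87% and 51.20% with Control GANC. With HSVTK DMSO it held 52.58% and 53.02%, and with HSVTK GANC 51.24% and 53.58%. These are shares of 1 total, so they are not independent. Complex I held 28.8 to 32.7%, both rRNAs together 1.89 to 2.52% and complex V 0.115 to 0.202%. The 3 most abundant genes, mt-Co1, mt-Nd1 and mt-Cytb, took 81.0 to 84.4% of all mitochondrial counts.

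**Figure D3:**
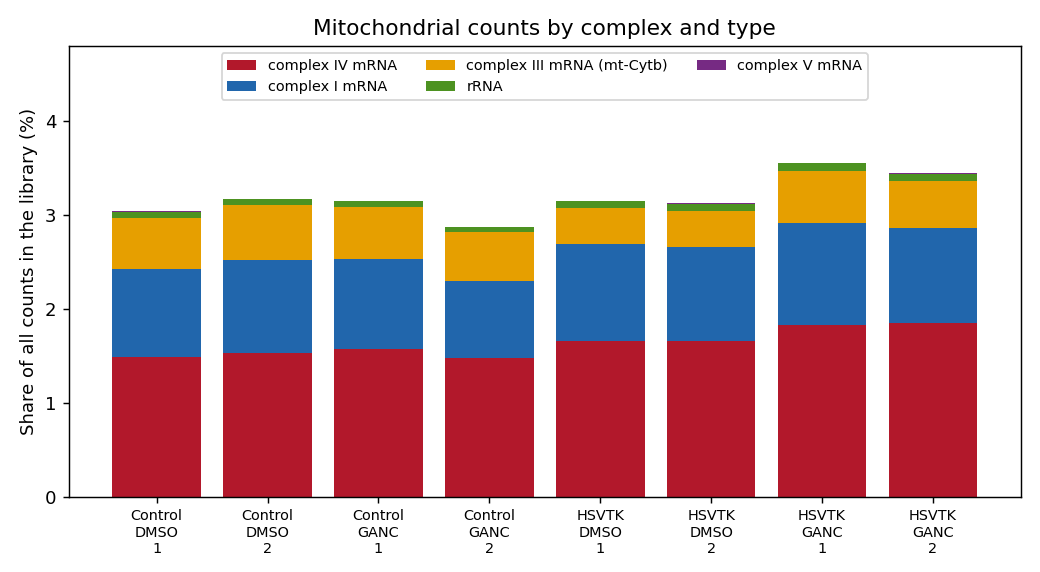
Mitochondrial counts as a percentage of all counts in each of the 8 libraries, stacked by complex and rRNA (tRNA, at most 0.00439%, is too small to draw). The HSVTK GANC bars end at 3.56% and 3.45%, above the 2.88 to 3.17% of the other 6, and the complex III segment is thinnest in the HSVTK DMSO bars.

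GANC against DMSO in HSVTK cells asks what the drug did where the kinase can be made. In the libraries labelled HSVTK GANC, 6 mitochondrial mRNAs were higher and 1 was lower than with HSVTK DMSO, so 7 of 16 passed the test beside 28.5% of all genes tested (13.3% higher and 15.2% lower). The median log2 fold change of the 16 was 0.10, and that of all genes 0.01. Libraries did not overlap between the groups for 8 of the 16, beside 64.2% of all genes. By complex, 2 of 7 genes of complex I, the single gene of complex III, 2 of 3 of complex IV and both of complex V changed, and neither rRNA nor mt-Tp did.

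The gene of complex III had the lowest adjusted p. In the HSVTK DMSO libraries mt-Cytb had 3801 and 3783 CPM, and with HSVTK GANC it had 5357 and 4915 CPM. It rose by a log2 fold change of 0.44 ± 0.05 (adjusted p = 4.03e-08, edgeR's quasi-likelihood test). The level with GANC was near that of the Control libraries, which had 5226 to 5911 CPM. The HSVTK DMSO libraries were the low ones.

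In complex I, mt-Nd2 and mt-Nd1 moved in opposite directions, although both come from the same strand with only tRNAs between them. The mt-Nd2 level was 1857 and 1811 CPM with HSVTK DMSO and 1501 and 1313 CPM with HSVTK GANC, and it fell by 0.38 ± 0.06 on the log2 scale (adjusted p = 3.42e-05, edgeR). The mt-Nd1 level was 5316 and 5199 CPM with DMSO and 5958 and 5649 CPM with GANC, a log2 fold change of 0.14 ± 0.05 (adjusted p = 0.0250, edgeR). Per library, the ratio of mt-Nd2 to mt-Nd1 counts was 0.346 to 0.375 in the other 6 libraries and 0.252 and 0.232 with HSVTK GANC. The remaining 5 genes of complex I did not pass, and the levels of mt-Nd4 (1190 and 1068 against 1200 and 1048 CPM) and mt-Nd5 (1646 and 1616 against 1674 and 1522 CPM) overlapped.

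In complex IV the largest gene moved little. The mt-Co1 level was 16441 and 16394 CPM with HSVTK DMSO and 17591 and 17824 CPM with HSVTK GANC (log2 fold change 0.11 ± 0.04, adjusted p = 0.0311, edgeR). The copper-binding subunit mt-Co2, whose sequence the nucleus shares, had 103 and 106 CPM with DMSO and 169 and 143 CPM with GANC (log2 fold change 0.58 ± 0.08, adjusted p = 2.59e-06, edgeR). The mt-Co3 level was 40.3 and 73.8 CPM with DMSO and 69.7 and 57.3 CPM with GANC, and these overlap.

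Both genes of complex V, which overlap on the genome as given above, rose from few counts. The proton channel subunit mt-Atp6 had 32.5 and 45.8 CPM with HSVTK DMSO and 57.3 and 61.0 CPM with HSVTK GANC (log2 fold change 0.59 ± 0.12, adjusted p = 0.00052, edgeR). The levels of mt-Atp8 were 3.68 and 3.24 CPM with DMSO and 4.69 and 5.08 CPM with GANC (log2 fold change 0.50 ± 0.19, adjusted p = 0.0473, edgeR). The tRNA mt-Tp had 39.0 and 41.6 CPM with DMSO and 42.9 and 39.0 CPM with GANC, which overlap.

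The calls of mt-Cytb, mt-Nd2 and mt-Co2 held when any of the 8 libraries was left out of the fit. With limma on log2(FPKM + 1) without a filter, mt-Nd2 did not pass (adjusted p = 0.119). With edgeR the mt-Atp6 call was lost without HSVTK DMSO replicate 1 (log2 fold change 0.37, adjusted p = 0.058), and DESeq2 gave it 0.0617. The mt-Nd1 call was lost without Control DMSO replicate 1 or 2 (adjusted p = 0.0656 and 0.0602), HSVTK DMSO replicate 1 or 2 (0.108 and 0.214) or replicate 1 of HSVTK GANC (0.193). The mt-Co1 call was lost without Control DMSO replicate 1 or 2 (adjusted p = 0.126 and 0.115), HSVTK DMSO replicate 1 or 2 (0.187 and 0.207) or replicate 2 of HSVTK GANC (0.0899). The mt-Atp8 call was lost without any of Control DMSO replicate 1 or 2 (adjusted p = 0.054 and 0.0537), HSVTK DMSO replicate 1 or 2 (0.086 and 0.247) and the replicates of HSVTK GANC (0.0894 and 0.192), and DESeq2 gave it 0.097. The count of 7 was lowest, at 3, without HSVTK DMSO replicate 1.

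The same contrast in Control cells gives the response to the drug in cells whose genotype the labels do not state. Only mt-Nd6 passed the test there, 1 of 16 (none higher and 1 lower) beside 8.08% of all genes (4.73% higher and 3.35% lower). Its levels were 355 and 320 CPM with Control DMSO and 301 and 289 CPM with Control GANC, and it fell by 0.19 ± 0.06 on the log2 scale (adjusted p = 0.0498, edgeR). The median of the 16 was -0.10 and that of all genes -0.00. At an unadjusted p under 0.05 there were 9 of 16, beside 21.6% of all genes, and libraries did not overlap for 6 of 16, beside 49.5% of all genes.

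Control GANC replicate 1 and 2 were unlike each other in several of these genes. The mt-Rnr2 level was 392 and 375 CPM with Control DMSO and 369 and 280 CPM with Control GANC. The mt-Nd4l gene had 167 and 143 counts with Control DMSO, 627 and 86 with Control GANC, and 148 to 193 in the 4 HSVTK libraries, so that replicate 1 of Control GANC stood above all other libraries and replicate 2 below them. The log2 fold change of mt-Nd4l was 1.11 (adjusted p = 0.0683, edgeR), and without Control GANC replicate 1 it was -0.81 (adjusted p = 0.027). Without that library 8 of the 16 genes were called, all lower with Control GANC. Without Control DMSO replicate 1 the edgeR count was 0, with 3 of 16 at an unadjusted p under 0.05. The mt-Nd6 call was lost without Control DMSO replicate 1 or 2 (adjusted p = 0.546 and 0.0799), Control GANC replicate 2 (0.185) or HSVTK DMSO replicate 1 or 2 (0.0867 and 0.0868).

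**Figure D4:**
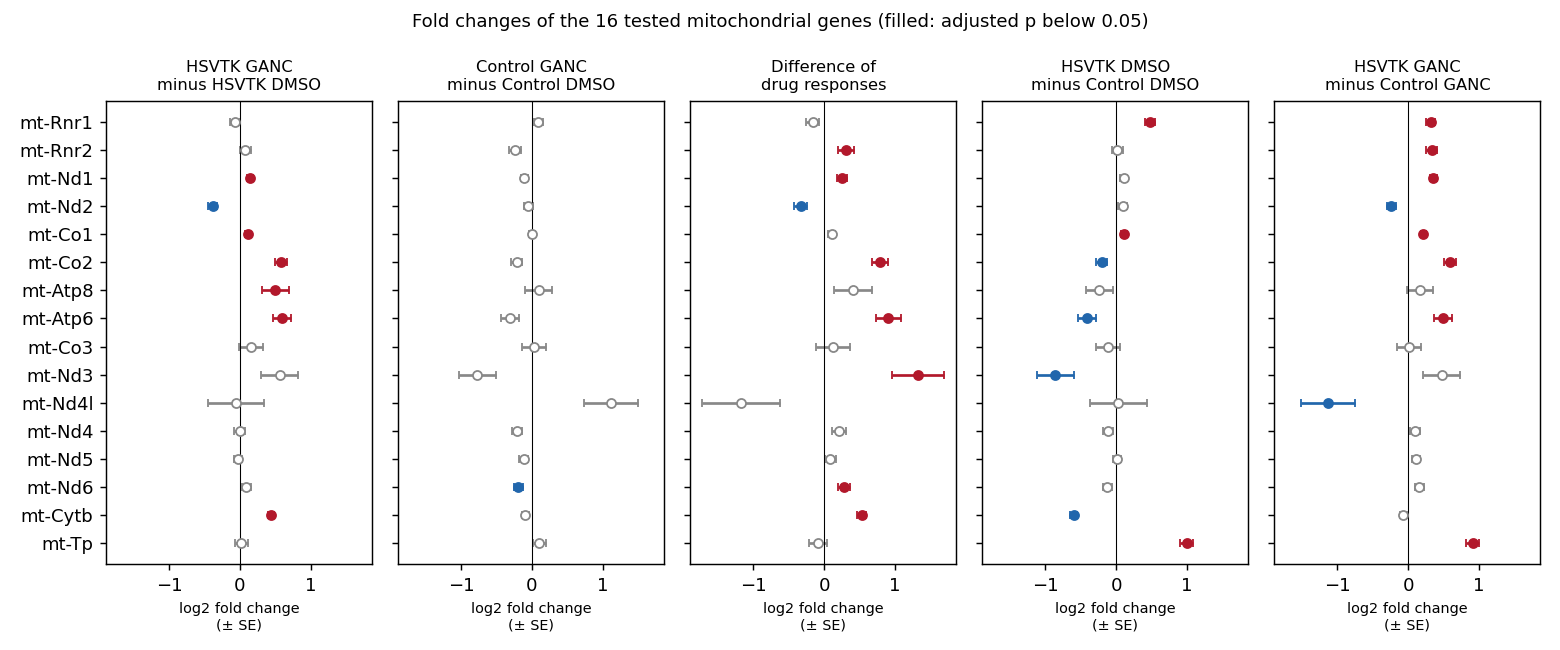
Log2 fold changes with their standard errors for the 16 tested genes in the 5 comparisons, in order along the mitochondrial genome, filled where the adjusted p is below 0.05 and red where higher, blue where lower. Called genes number 7, 1, 8, 7 and 9 from the left panel to the right, and mt-Cytb and mt-Tp stand out with HSVTK DMSO against Control DMSO, at -0.60 and 1.00.

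The difference between the drug responses, HSVTK minus Control, was tested as an interaction. It passed for 8 of 16 genes, 7 in the positive and 1 in the negative direction, beside 25.6% of all genes (11.6% positive and 14% negative). The median was 0.23, with 0.02 for all genes. The interaction was 0.53 ± 0.07 for mt-Cytb (adjusted p = 6.22e-07, edgeR), 0.80 ± 0.11 for mt-Co2 (5.14e-06) and 0.91 ± 0.17 for mt-Atp6 (0.000276). These 3 held without any single library. With limma on log2(FPKM + 1) without a filter, mt-Cytb (adjusted p = 0.0566) and mt-Atp6 (0.144) did not pass. For mt-Atp6 and mt-Co2 the fold changes were positive in HSVTK cells and, without passing the test, -0.31 and -0.22 in Control cells.

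The other 5 interactions depended on single libraries. They were 0.25 ± 0.07 for mt-Nd1 (adjusted p = 0.006, edgeR), -0.33 ± 0.09 for mt-Nd2 (0.00626), 0.28 ± 0.09 for mt-Nd6 (0.0162), 0.32 ± 0.11 for mt-Rnr2 (0.0406) and 1.33 ± 0.37 for mt-Nd3 (0.00779). The mt-Nd1 call was lost without Control DMSO replicate 2 (0.115) or HSVTK DMSO replicate 2 (0.0582), and the mt-Nd2 call without Control DMSO replicate 1 (0.0511) or HSVTK GANC replicate 2 (0.0691). For mt-Nd3 the interaction was 0.57 (adjusted p = 0.262) without Control DMSO replicate 1, which had 7.69 CPM against 2.98 to 5.10 CPM in the other 7 libraries, and its adjusted p was 0.068 without HSVTK GANC replicate 1. The mt-Nd6 call was lost without Control DMSO replicate 1 (0.21), HSVTK DMSO replicate 1 (0.13) or replicate 1 of HSVTK GANC (0.0788). The mt-Rnr2 call was lost without Control DMSO replicate 1 or 2 (0.142 and 0.0601), Control GANC replicate 2 (0.317), HSVTK DMSO replicate 1 or 2 (0.107 and 0.122) or replicate 1 of HSVTK GANC (0.262). DESeq2 called neither mt-Rnr2 (0.304) nor mt-Nd2 (0.103). Without Control DMSO replicate 1 the count of 8 was 4.

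HSVTK against Control cells under DMSO compares the 2 cell groups without the drug. Of the 16 genes 7 passed, 3 higher and 4 lower in HSVTK DMSO, beside 33.7% of all genes (16.4% higher and 17.3% lower). The median was -0.05, with 0.00 for all genes, and libraries did not overlap for 9 of 16, beside 67.3% of all genes. This comparison shares the HSVTK DMSO libraries with the drug response in HSVTK cells and the Control DMSO libraries with that in Control cells, and the comparison under GANC shares the GANC libraries with both.

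Counts of the proline tRNA gene mt-Tp were 2.00-fold higher in HSVTK DMSO. The other 21 tRNA genes had 0 counts in every library. Whether the mt-Tp counts came from the tRNA, a precursor or the opposite strand was not tested. The mt-Tp gene had 20.5 and 19.9 CPM with Control DMSO and 39.0 and 41.6 CPM with HSVTK DMSO (log2 fold change 1.00 ± 0.09, adjusted p = 1.01e-09, edgeR). No Control library passed 22.2 CPM and no HSVTK library fell under 39.0 CPM. The mt-Cytb gene, which lies on the other side of mt-Tt on the opposite strand, was lower, with 5557 and 5911 CPM with Control DMSO against 3801 and 3783 CPM with HSVTK DMSO (log2 fold change -0.60 ± 0.05, adjusted p = 4.3e-11, edgeR). Counts of mt-Tp per 1000 counts of mt-Cytb were 3.36 to 4.04 in the 4 Control libraries, 10.3 and 11.0 with HSVTK DMSO, and 8.01 and 7.92 with HSVTK GANC.

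Of the rRNAs only mt-Rnr1 differed. It had 290 and 264 CPM with Control DMSO and 373 and 400 CPM with HSVTK DMSO (log2 fold change 0.48 ± 0.07, adjusted p = 1.18e-06, edgeR), while mt-Rnr2, from the same precursor, had 392 and 375 against 390 and 386 CPM. The ratio of mt-Rnr1 to mt-Rnr2 counts was 0.741 and 0.705 with Control DMSO and 0.957 and 1.03 with HSVTK DMSO. It was 0.855 and 0.976 with Control GANC and 0.862 and 0.942 with HSVTK GANC, so the Control DMSO libraries were the low ones. The nuclear rRNA gene Rn18s-rs5 went the other way (log2 fold change -0.44, adjusted p = 2.29e-05, edgeR), and the part of rRNA removal in these values was not tested.

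The calls of mt-Tp, mt-Cytb and mt-Rnr1 held without any single library, and the other 4 did not. The fold change of mt-Co1 was 0.11 ± 0.04 (adjusted p = 0.0244, edgeR), and that call was lost without either Control DMSO library (0.28 without replicate 1 and 0.10 without replicate 2) or HSVTK DMSO replicate 1 or 2 (0.174 and 0.155). For mt-Co2 it was -0.20 ± 0.08 (0.0484), lost without Control DMSO replicate 1 (0.428) or HSVTK DMSO replicate 1 or 2 (0.218 and 0.138). For mt-Atp6 it was -0.41 ± 0.12 (0.0106) with overlapping libraries, lost without Control DMSO replicate 1 (0.298) or HSVTK DMSO replicate 1 (0.358). For mt-Nd3 it was -0.86 ± 0.26 (0.0105), and -0.10 (adjusted p = 0.828) without Control DMSO replicate 1; the call was also lost without HSVTK DMSO replicate 1 or 2 (0.052 and 0.0732). DESeq2 did not call mt-Co2 (0.0637) or mt-Atp6 (0.214). The count of 7 was 3 without Control DMSO replicate 1.

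**Figure D5:**
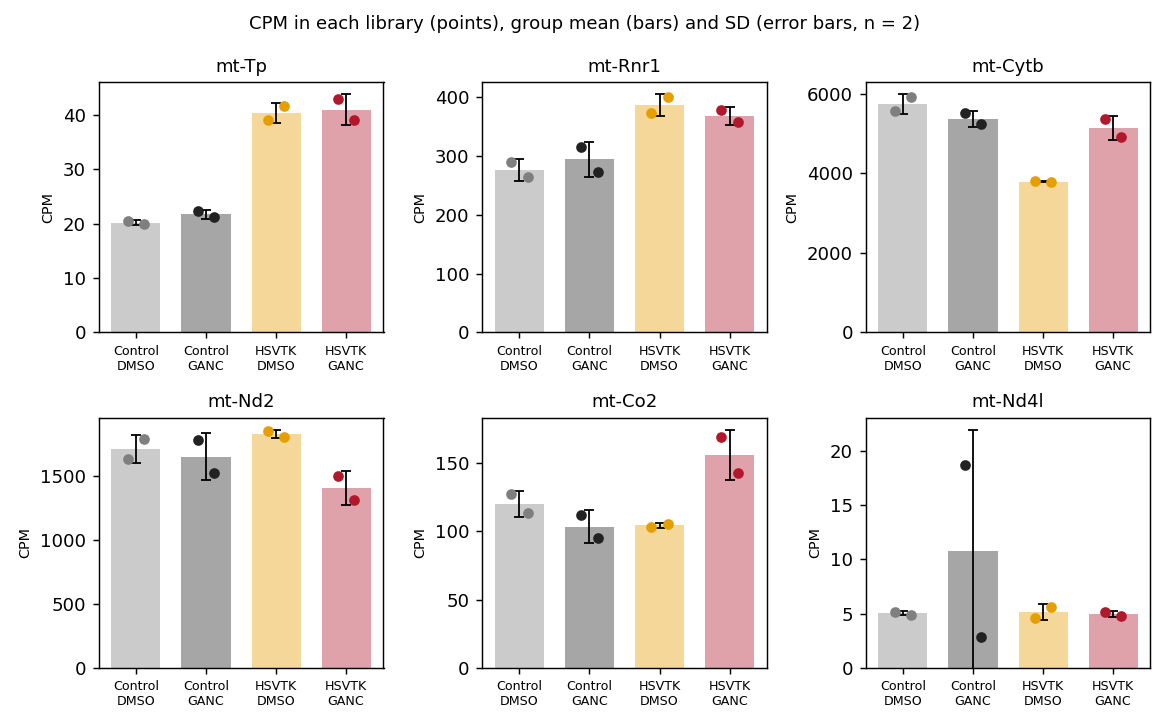
CPM of 6 mitochondrial genes in each library (points), with the group mean (bars from 0) and SD (error bars, n = 2, cut off at 0 for mt-Nd4l). The 4 HSVTK libraries are above the 4 Control libraries for mt-Tp (39.0 to 42.9 against 19.9 to 22.2 CPM) and for mt-Rnr1, HSVTK DMSO is lowest for mt-Cytb and HSVTK GANC lowest for mt-Nd2.

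Under GANC, 9 of 16 genes differed between HSVTK and Control cells, 7 higher and 2 lower in HSVTK GANC, beside 26.1% of all genes (11.1% higher and 14.9% lower). The median was 0.19, with 0.01 for all genes, and libraries did not overlap for 11 of 16, beside 59.6% of all genes. Counts of mt-Tp were again higher, with 22.2 and 21.1 CPM in Control GANC and 42.9 and 39.0 CPM in HSVTK GANC (log2 fold change 0.92 ± 0.09, adjusted p = 8.31e-09, edgeR). The mt-Cytb levels, 5516 and 5226 against 5357 and 4915 CPM, overlapped here and the gene did not pass (-0.06 ± 0.05, adjusted p = 0.342).

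Both rRNAs were higher in HSVTK GANC. The mt-Rnr1 gene had 315 and 274 against 379 and 358 CPM (log2 fold change 0.32 ± 0.07, adjusted p = 0.000432, edgeR) and mt-Rnr2 had 369 and 280 against 439 and 380 CPM (0.33 ± 0.08, adjusted p = 0.00247). Among the mRNAs, mt-Nd1 was higher by 0.36 ± 0.05 (adjusted p = 1.44e-06, edgeR), with 4755 and 4299 against 5958 and 5649 CPM. For mt-Co1 the difference was 0.22 ± 0.04 (7.03e-05), for mt-Co2 0.59 ± 0.08 (1.7e-06) and for mt-Atp6 0.49 ± 0.12 (0.00323). The mt-Nd2 gene was lower, with 1785 and 1526 against 1501 and 1313 CPM (-0.23 ± 0.06, adjusted p = 0.00588).

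The calls of mt-Tp, mt-Rnr1, mt-Nd1, mt-Co1 and mt-Co2 held without any single library. With limma on log2(FPKM + 1) without a filter, mt-Rnr1 (adjusted p = 0.0637), mt-Nd1 (0.0595) and mt-Co1 (0.197) did not pass. The mt-Rnr2 call was lost without Control GANC replicate 2 (adjusted p = 0.12, edgeR) or HSVTK GANC replicate 1 (0.109), the mt-Nd2 call without Control GANC replicate 1 (0.157) or HSVTK GANC replicate 2 (0.19), and the mt-Atp6 call without Control GANC replicate 2 (0.0731) or HSVTK GANC replicate 2 (0.0635). DESeq2 called none of these 3 (0.0896, 0.103 and 0.13). The ninth call, mt-Nd4l at -1.13 ± 0.38 (0.0265), rested on the 627 counts of Control GANC replicate 1, and without that library the difference was 0.79 (adjusted p = 0.0162). The gene did not pass without HSVTK GANC replicate 1 or 2 (0.137 and 0.196) or with DESeq2 (0.366).

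The nuclear copies were counted too. The 12 pseudogenes that share a 75-base window with a member together had 0.707 to 1.08% as many counts as the mitochondrial genes. The 5 shared mRNAs made up 0.582 to 0.880% of the mitochondrial counts, so that members and copies were of like size. The copy of mt-Nd3, Gm28438, had 718 to 1601 counts against 96 to 250 for mt-Nd3, and the copy of mt-Atp6, Gm10925, had 2006 to 2985 against 1042 to 2040. Both copies were above their member in all 8 libraries, while Gm28661 had fewer counts than mt-Co2 in each of them. Most of the pseudogenes tested lie on chromosome 1, where Gm10222 and Gm28438 are close neighbours. Gm28661, Gm10925, Gm28437 and Gm10222 differ from their member at no aligned base. Counts of the pseudogenes can therefore not be taken as independent of one another or of the members. With HSVTK GANC against HSVTK DMSO, 5 of the 9 pseudogenes tested were higher and none lower, beside 13.3% and 15.2% of all genes. The 5 were 2 without HSVTK DMSO replicate 1 and 3 without replicate 1 or 2 of HSVTK GANC. In Control cells none was higher and 1 lower, beside 4.73% and 3.35%, and the 1 was lost without Control DMSO replicate 1, Control GANC replicate 2 or either HSVTK DMSO library. The copy of mt-Co2, Gm28661, had 1874 and 2089 counts with HSVTK DMSO and 2061 and 4362 with HSVTK GANC (log2 fold change 0.71 ± 0.15, adjusted p = 0.000732, edgeR), and without HSVTK GANC replicate 2 it was 0.13 (adjusted p = 0.342), with 0.111 from DESeq2. The mt-Co2 gene itself had 3310 and 3616 against 5333 and 4780. The ratio of mt-Co2 to Gm28661 counts was 2.59 in HSVTK GANC replicate 1 and 1.10 in replicate 2, and 1.73 to 2.25 in the other 6 libraries.

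The copy of mt-Atp6, Gm10925, moved with it. It had 2010 and 2006 counts with HSVTK DMSO and 2880 and 2985 with HSVTK GANC (log2 fold change 0.58 ± 0.07, adjusted p = 8.96e-07, edgeR), and it was lower in HSVTK DMSO than in Control DMSO (-0.41 ± 0.07, 6.02e-05). The split of reads between each pair cannot be told apart from their own levels. With the counts of the copies added to the member, an alternative chosen after seeing the data, 3 more values passed the test: mt-Nd3 with GANC in HSVTK cells (0.57, adjusted p = 0.00776) and in HSVTK GANC against Control GANC (0.43, 0.0497), and mt-Co2 with GANC in Control cells (-0.25, 0.0233). The calls of mt-Nd3 (0.0991) and mt-Co2 (0.0639) under DMSO and of mt-Nd4l under GANC (0.0731) were lost.

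Nuclear genes that act on mitochondrial DNA and RNA were read from lists, whose counts stand beside the shares of all genes: 13.3% rose and 15.2% fell with GANC in HSVTK cells, 4.73% rose and 3.35% fell in Control cells, and 16.4% were higher and 17.3% lower in HSVTK DMSO than in Control DMSO. Of 11 tested genes of mitochondrial transcription, 2 rose and 1 fell with GANC in HSVTK cells and 1 was higher and 3 lower in HSVTK DMSO, counts near those shares. The 1 that fell did not pass when any 1 of the 4 HSVTK libraries was left out, and without Control DMSO replicate 2 the counts under DMSO were 2 higher and 2 lower. With GANC in Control cells the count was 0 with edgeR, with DESeq2 and at an unadjusted p under 0.05. The mitochondrial RNA polymerase Polrmt had 49.1 ± 0.366 CPM (SD, n = 2) with Control DMSO, 48.0 ± 1.01 with Control GANC, 35.0 ± 1.15 with HSVTK DMSO and 47.6 ± 1.88 with HSVTK GANC. It was lower in HSVTK DMSO than in Control DMSO (log2 fold change -0.49, adjusted p = 1.73e-05, edgeR) and rose with GANC in HSVTK cells (0.44, 9.80e-05). The helicase of mitochondrial DNA replication, Twnk, had the same pattern, with -0.51 (adjusted p = 4.16e-06, edgeR) and 0.39 (0.000216). Its list of 23 tested genes of mitochondrial DNA replication moved both ways. With GANC in HSVTK cells 2 rose and 5 fell, and 4 were higher and 3 lower in HSVTK DMSO. The interaction was positive for 1 and negative for 5, beside 11.6% and 14% of all genes. Tfam, which packs mitochondrial DNA and starts its transcription, had 149 to 153 CPM in the group means and passed no test.

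The list of mitochondrial RNA processing, stability and decay had 32 tested genes. With GANC, 12 rose and 2 fell in HSVTK cells, beside 13.3% and 15.2% of all genes (median 0.15), and none rose and 4 fell in Control cells, beside 4.73% and 3.35% (median -0.11). The interaction was positive for 15 and negative for 1, beside 11.6% and 14% (median 0.24). In HSVTK DMSO against Control DMSO none was higher and 12 were lower, beside 16.4% and 17.3% (median -0.12). Under GANC 7 were higher and 3 lower, beside 11.1% and 14.9% (median 0.08), and the 7 were 3 without HSVTK GANC replicate 2. Rexo2, which degrades short RNA in mitochondria, rose with GANC in HSVTK cells by 0.50 ± 0.07 (adjusted p = 3.04e-06, edgeR), as did the rRNA methyltransferase Mrm3 (0.84 ± 0.12, 6.05e-06) and the tRNA methyltransferase Nsun3 (0.72 ± 0.13, 9.3e-05). Lrpprc, which keeps mitochondrial mRNAs stable, was lower with GANC in Control cells (-0.23, 0.0233) and in HSVTK DMSO against Control DMSO (-0.36, 5.17e-05). Fastkd2, which binds mitochondrial rRNA, was lower in the same 2 comparisons (-0.31, 0.00786 and -0.55, 1.03e-06). In Control cells the Lrpprc call was lost without Control DMSO replicate 1 or 2 (0.0667 and 0.338), Control GANC replicate 2 (0.208) or either HSVTK DMSO library (0.0508 and 0.0506), and the Fastkd2 call was lost without replicate 1 of Control DMSO (0.139) or replicate 2 of Control GANC (0.0875). Leaving out 1 library gave 9 to 12 higher genes of the list in HSVTK cells, 11 to 16 positive interactions, 11 or 12 lower genes under DMSO and 3 to 10 higher ones under GANC. The 4 lower genes in Control cells were 1 without Control DMSO replicate 1 or 2, 0 without Control GANC replicate 2 and 2 without either HSVTK DMSO library. The partner of Lrpprc, Slirp, had only 0 to 4 counts in a library, too few for the test.

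The lists of tRNA charging and of ribosomal proteins come next. Of 33 tested genes of mitochondrial tRNA charging and modification, 8 rose and 2 fell with GANC in HSVTK cells, beside 13.3% and 15.2% of all genes, and in HSVTK DMSO 3 were higher and 9 lower than in Control DMSO, beside 16.4% and 17.3%. The 8 were 4 without HSVTK GANC replicate 1, and the 9 were 3 without Control DMSO replicate 1 and 5 and 4 without HSVTK DMSO replicate 1 and 2. The interaction of this tRNA list was positive for 7 and negative for 2, beside 11.6% and 14% of all genes. In HSVTK GANC 7 were higher than in Control GANC and none lower, beside 11.1% and 14.9%. Both counts of 7 were smaller when some single libraries were left out. In this list Pars2, which charges the proline tRNA, rose with GANC in HSVTK cells (0.63 ± 0.11, adjusted p = 8.78e-05, edgeR). Of 78 mitochondrial ribosomal proteins, 10 rose and 3 fell with GANC in HSVTK cells, the rises near the 13.3% of all genes, and the 10 were 5 when any 1 of the 4 HSVTK libraries was left out. In HSVTK DMSO 7 were higher and 19 lower, beside 16.4% and 17.3%. The 19 were 10 without Control DMSO replicate 1 and 11 without HSVTK DMSO replicate 1, and the 7 were 4 without replicate 2 of either group and 11 without either Control GANC library. The 3 with the lowest adjusted p there, Mrpl19 (-1.33), Mrpl35 (-1.07) and Mrps25 (-0.91), stand on chromosome 6, as do Immt (-1.33), Ptcd3 (-0.95) and Dguok (-1.50) of other lists. Over all 322 nuclear genes tested in these lists, 55 were higher and 65 lower in HSVTK DMSO, beside 16.4% and 17.3% of all genes. Among the 21 on chromosome 6 there were 3 higher and 10 lower. The share among all genes of chromosome 6 is not given here, so a trait of these lists cannot be told apart from one of the chromosome.

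Nuclear subunits of the respiratory complexes are made in the cytosol and join the mitochondrial ones in the membrane. With GANC in HSVTK cells 13.3% of all genes rose and 15.2% fell. Beside these shares, 1 of 36 nuclear subunits of complex I rose and 6 fell, the falls near the share of all genes. In complex III 0 of 9 changed with edgeR or DESeq2 (2 at an unadjusted p under 0.05, beside 38% of all genes). In complex IV 1 of 16 rose and 4 fell, and in complex V 1 of 17 rose and 1 fell. The 6 of complex I were 3 and 1 without HSVTK DMSO replicate 1 and 2. Uqcrc1, a core protein of complex III, was higher in HSVTK DMSO than in Control DMSO (0.43 ± 0.07, adjusted p = 1.02e-05, edgeR) where mt-Cytb was lower, and 4 of the 9 nuclear subunits of complex III were higher there and none lower, beside 16.4% and 17.3% of all genes. The 4 were 2 without replicate 2 of Control DMSO or of HSVTK DMSO. Complex II, which has no mitochondrial gene, had 2 of 4 subunits lower and none higher with GANC in HSVTK cells, beside 15.2% and 13.3% of all genes. Fewer passed without HSVTK DMSO replicate 1 or 2 or replicate 1 of HSVTK GANC.

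Of 18 tested genes of mitophagy, the removal of mitochondria, 1 rose and 6 fell with GANC in HSVTK cells, beside 13.3% and 15.2% of all genes, and 1 rose and 1 fell in Control cells, beside 4.73% and 3.35%. The 6 were 3 without HSVTK GANC replicate 2. Bnip3, a mitophagy receptor also induced by low oxygen, had mean levels of 42.0 CPM with Control DMSO, 85.4 with Control GANC, 187 with HSVTK DMSO and 36.1 with HSVTK GANC. It fell by 2.37 ± 0.09 on the log2 scale with GANC in HSVTK cells (adjusted p = 5.41e-17, edgeR) and rose by 1.03 ± 0.09 in Control cells (2.06e-08). Among 13 tested regulators of mitochondrial biogenesis 3 rose and 4 fell with GANC in HSVTK cells, beside 13.3% and 15.2% (1 rose without HSVTK DMSO replicate 2, and 2 fell without replicate 1 of HSVTK DMSO or replicate 2 of HSVTK GANC), and Ppargc1a, the best known of them, had 0 to 2 counts, also too few.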

How the data were processed

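Libraries were made from total RNA with a VAHTS Universal V6 kit, per the labels' protocols, which do not state mRNA selection or rRNA removal. Tools listed in the submitters' processing notes are DESeq2 1.40.2, featureCounts 2.0.1, HISAT2 2.1.0 and fastp 0.23.2, with GRCm39 as build. The authors deposited raw counts per gene and FPKM. All 456080 deposited FPKM values equal the count divided by gene length and library total within 4.87e-06.

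The counts were tested with edgeR 4.0.16 (R 4.3.3; quasi-likelihood F test), with TMM scaling, filterByExpr and all 8 libraries in 1 fit with a mean per group (4 residual degrees of freedom). P-values were adjusted over 17976 genes (Benjamini-Hochberg), called below 0.05, and SE is the log2 fold change over the square root of F. CPM uses TMM factors. The pipeline was tested on simulated data. Replicates differed beyond counting noise (chi-square over its degrees of freedom 3.58 to 8.39). Alternatives were DESeq2 1.42.0, limma 3.58.1 on log2(FPKM + 1) or (FPKM + 0.1), other scalings and filters, a replicate block, fits of the compared libraries only and leaving out each library.

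Named genes are the 37 members, up to 3 called genes with the lowest adjusted p per nuclear list and comparison, and a few fixed ones (Polrmt, Tfam, Twnk, Lrpprc, Slirp, Bnip3, Ppargc1a, Pou5f1, Nanog, Sox2). Zscan4c was added as a check of the labels, and the pseudogenes after the files were seen. Members and lists were chosen with earlier results of these data known. Sequences come from GENCODE vM21 (GRCm38), matched by Ensembl identifier for all 37 members, and serve for sequence only, since the files use another build.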

Additional observations from a re-analysis of the deposited data

Results flagged for a closer look

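For 8 mitochondrial genes the response to GANC differed between HSVTK and Control cells by the interaction term of edgeR. The log2 difference was 0.80 for mt-Co2, 0.91 for mt-Atp6 and 0.53 for mt-Cytb. All of these held without any single library, but only mt-Co2 passed with limma on log2(FPKM + 1) without a filter. For the others it was 0.25 for mt-Nd1, -0.33 for mt-Nd2, 0.32 for mt-Rnr2, 1.33 for mt-Nd3 and 0.28 for mt-Nd6. Each of the latter calls was lost without at least 1 library, as given above. Groups of 2 libraries are too small for a test of single outlying libraries.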

How the results depend on the processing

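Counts of called genes among the 16 depended on the tool and on single libraries. With limma on log2(FPKM + 1) for filtered genes, on log2(FPKM + 0.1) and on log2(FPKM + 1) without a filter, the count was 4, 4 and 1 for the difference of drug responses (8 with edgeR), 3, 3 and 3 for HSVTK against Control under DMSO (7), 4, 5 and 2 under GANC (9), 0, 0 and 0 for GANC in Control cells (1), and 3 without a filter for GANC in HSVTK cells (7). The Control count was 0 with library size scaling, with scaling from nuclear genes and in the fit of compared libraries only, 5 without the filter and 2 with nuclear copies added. The count under DMSO was 11 in the fit of the compared libraries only. Without 1 library the counts ranged from 3 to 7 for GANC in HSVTK cells, 0 to 8 in Control cells, 4 to 11 for the difference, 3 to 8 under DMSO and 7 to 11 under GANC. As a share of summed FPKM the mitochondrial genes were 0.846 percentage points above HSVTK DMSO and 1.12 above Control GANC in HSVTK GANC.

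No scaling, filter or tool turned the sign of a mitochondrial gene that passed under any setting. Leaving out 1 library did for 10 values, of which only mt-Nd4l under GANC had passed with all libraries, and these log2 fold changes ranged from -0.22 to 0.66 (mt-Co3) and -0.051 to 0.089 (mt-Tp) for GANC in HSVTK cells, -0.81 to 1.90 (mt-Nd4l) in Control cells, -0.24 to 0.63 (mt-Co3), -1.96 to 0.76 (mt-Nd4l) and -0.022 to 0.20 (mt-Nd5) for the difference, -0.61 to 0.26 (mt-Co3) under DMSO, and -1.92 to 0.79 (mt-Nd4l), -0.044 to 0.25 (mt-Nd4) and -0.0029 to 0.22 (mt-Nd5) under GANC. The cause was not tested.

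Same-numbered libraries did not deviate together (correlations of -0.0319 to 0.0145 over 17976 genes), so the numbers give no pairing. With the replicate block the counts were 6, 2, 8, 7 and 9, and only that of GANC in Control cells moved by over 1.5 times, from 1. Low counts limit mt-Nd3, mt-Nd4l and mt-Atp8, the genes with the fewest counts. The part of depth and of shared sequence in these low counts was not tested.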
